A study of Mus musculus with 9 samples.

Results

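The genes examined here were 10 markers of the oligodendrocyte precursor lineage, found by symbol among the 32285 mouse genes of the deposited single-cell matrices: the transcription factors Olig1 and Olig2, the growth factor receptor Pdgfra, the surface proteoglycan Cspg4, the G protein-coupled receptor Gpr17, the sialidase Neu4, the secreted C1q-related protein C1ql1, the choline phosphodiesterase Enpp6, the matrix proteoglycan Vcan and the myelin-associated gene Bcas1. All 10 were listed in the matrices and all 10 had unique molecular identifier (UMI) counts in both groups. They were counted in brains carrying EP ZFTA-RELA, an ependymoma driven by fusion of ZFTA (C11orf95) with the NF-kappa B subunit RELA, and in brains without tumor, with 1 library of single-cell RNA from each mouse. The 5 tumor libraries came from mice of genotype NestinCreERT2;Fus1, in which a C11orf95-RelA transgene placed in the Rosa26 locus behind a lox-stop-lox cassette, and followed by IRES and luciferase (Luc) sequence, is switched on by tamoxifen-activated Cre under Nestin control. The 4 control libraries came from NestinCreERT2;TdT mice, which carry the same Cre driver and a red fluorescent reporter in place of the fusion, so that the groups differed in the reporter allele as well as in the fusion. Mice of both groups were 6 to 8 weeks old. Because the Cre is driven by Nestin, recombination is aimed at neural stem and progenitor cells and their progeny, and the libraries hold whatever brain and tumor cells survived dissociation, a percoll step and a sort with DAPI and anti-Ter119, without selection of the oligodendrocyte lineage. The paper's methods describe the fusion construct itself as Nestin-driven too, so a recombined cell may lack transgene UMIs.

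Oligodendrocyte precursors arise from neural progenitors that switch on Olig2 and Olig1. They carry Pdgfra, through which PDGF ligands drive their division, and the proteoglycan NG2, encoded by Cspg4. When a precursor commits to differentiate it loses Pdgfra and passes through a short stage marked by Gpr17, Enpp6 and Bcas1 before it makes myelin. Not one of these markers is exclusive: Olig2 and Olig1 are also found in other glial progenitors and in gliomas, Cspg4 in pericytes and other mural cells, and Pdgfra in fibroblasts.

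After quality filters, 20397 control cells and 15854 tumor cells were kept, with 4023 to 6358 cells per control library and 1720 to 5074 per tumor library. The median depth ranged from 2029 to 4112 UMIs per cell in controls and from 2075 to 6547 in tumors. The added sequences followed the labels: fusion UMIs were found in 5 of 5 tumors and in 0 of 4 controls, and reporter UMIs in 4 of 4 controls and 0 of 5 tumors. Cells with at least 1 UMI of the fusion, Luc or IRES, called transgene-positive below, numbered 83, 991, 103, 3788 and 1235 in tumors 1 to 5, so that tumors 1 and 3 contributed few of them. The controls held 0, 1, 6 and 5 such cells, by IRES UMIs alone. Cells were also gated by fixed marker lists that contain none of the 10 genes. Neuron-gated cells made up 86.3 to 89.3% of control cells and 0.434 to 40.6% of tumor cells, and this difference in makeup enters every comparison of whole libraries. In such sums fewer cells of a type and less RNA per cell cannot be told apart. The 28 pairs among the 8 libraries other than control 4 shared 1 to 9 cell barcodes each, and control 4 was not compared. Library totals are given as counts per 1000000 UMIs (CPM), each value is 1 mouse, and p-values measure the spread between mice.

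The transcription factors showed the largest differences between tumors and controls. Olig1 stood at 33.9, 38.4, 29.3 and 33.6 CPM in controls 1 to 4 and at 102, 413, 315, 787 and 166 CPM in tumors 1 to 5. Olig2, its more essential partner in specifying the lineage, stood at 8.74, 8.01, 8.46 and 7.70 CPM in controls and at 30.2, 90.2, 75.5, 252 and 105 CPM in tumors. For both genes the lowest tumor lay above the highest control, and tumor 4 was the highest. Olig1 was 3.75 ± 0.65 higher in tumors on the log2 scale (SE, n = 5 tumors and 4 controls; edgeR quasi-likelihood test, Benjamini-Hochberg adjusted p = 0.0011). Olig2 was 4.10 ± 0.64 higher (adjusted p = 0.00069).

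Among the surface and matrix proteins, Pdgfra moved least and varied least between tumors. It stood at 12.8, 12.8, 10.9 and 11.1 CPM in controls and 30.4, 19.6, 34.7, 29.9 and 36.8 CPM in tumors, a log2 difference of 1.59 ± 0.19 (adjusted p = 0.00027). Cspg4 stood at 4.30, 8.47, 6.95 and 6.27 CPM in controls and 17.7, 86.2, 43.6, 97.4 and 27.6 CPM in tumors, a log2 difference of 3.42 ± 0.61 (adjusted p = 0.0013). Both genes had every tumor above every control, but tumor 2, next to the highest for Cspg4, was the lowest for Pdgfra. Vcan, a large chondroitin sulfate proteoglycan of precursor and stromal matrix, stood at 17.5 to 21.7 CPM in controls and at 44.2, 64.8, 71.6, 110 and 42.6 CPM in tumors, a log2 difference of 2.05 ± 0.35 (adjusted p = 0.0010).

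The genes of late and committed precursors split the tumors. Gpr17 stood at 5.46, 4.51, 2.84 and 4.52 CPM in controls and at 11.7, 3.79, 79.6, 61.4 and 4.29 CPM in tumors. Tumors 3 and 4 were far above the controls and tumors 2 and 5 lay within their range, and the log2 difference of 3.11 ± 0.94 had an adjusted p of 0.016, but was not called with the replicate number as a block (2.61, adjusted p = 0.059). Enpp6 stood at 9.10, 8.15, 6.38 and 7.65 CPM in controls and at 22.6, 11.6, 24.0, 41.6 and 3.05 CPM in tumors, with tumor 5 below every control. Its log2 difference of 1.66 ± 0.60 (adjusted p = 0.034) was not called without any 1 of the controls, nor without tumor 3 or tumor 4, with adjusted p between 0.050 and 0.083 in those 6 fits. Bcas1 stood at 59.5, 67.2, 63.3 and 60.7 CPM in controls and at 55.4, 47.6, 192, 156 and 19.8 CPM in tumors, with 3 tumors below all controls and 2 above. Its log2 difference of 0.82 ± 0.56 did not pass (adjusted p = 0.22). Neu4 and C1ql1, both typical of precursors, followed the order of Gpr17 in placing tumors 3 and 4 highest: Neu4 reached 26.4 and 36.9 CPM there against 2.97 to 3.86 CPM in controls, and C1ql1 reached 47.6 and 51.3 CPM against 6.48 to 7.74 CPM. Their log2 differences were 2.61 ± 0.62 (adjusted p = 0.0053) for Neu4 and 2.26 ± 0.51 (adjusted p = 0.0041) for C1ql1.

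**Figure D1:**
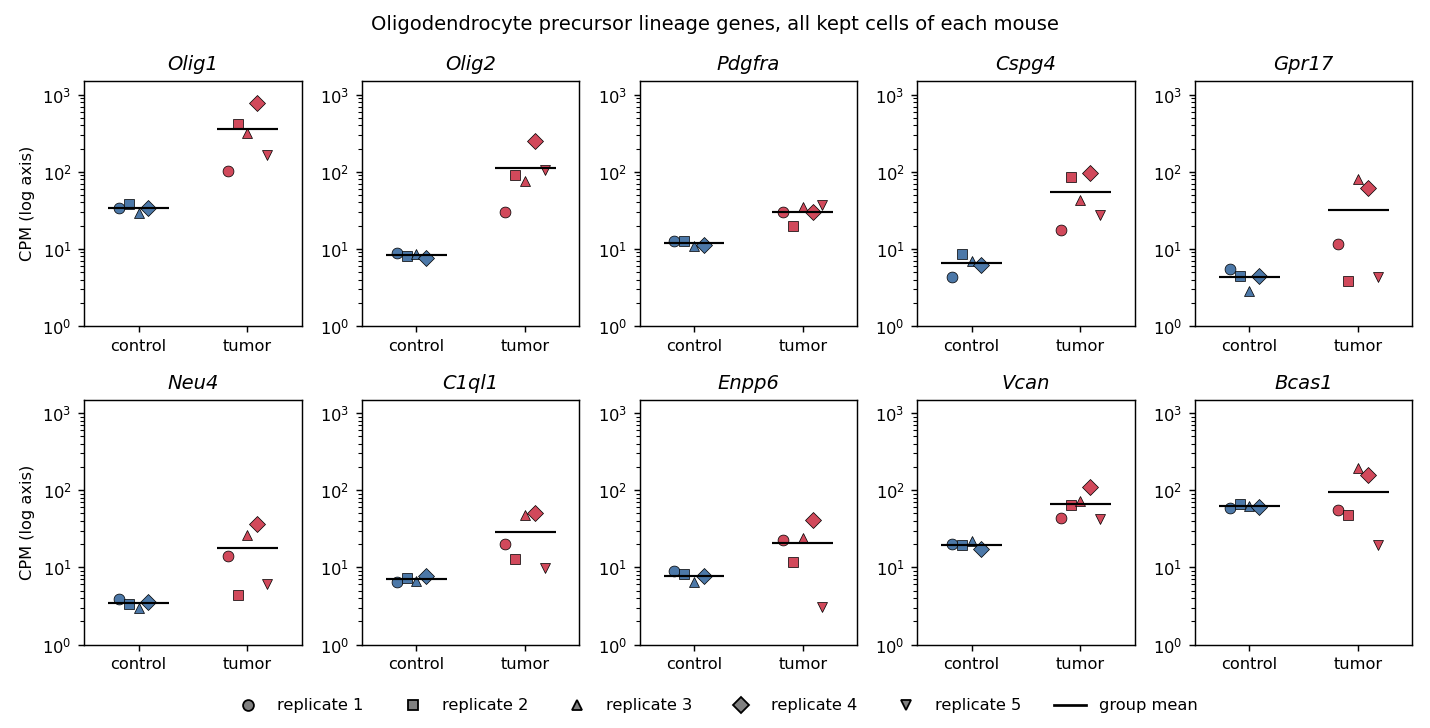
Level of each of the 10 genes in the kept cells of each library, in CPM on a log axis, with 4 controls and 5 tumors as points, shapes for replicate numbers and a line at the group mean. Olig1 and Olig2 were higher in every tumor than in every control, while Gpr17, Enpp6 and Bcas1 overlapped between groups.

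Counted together, 9 of the 10 genes were called higher in tumors and 0 lower, where 32.2% of the 17586 genes tested were called higher. Their median log2 difference was 2.44, beside 0.04 over all genes. For 7 of the 10 genes every tumor lay above every control, which was so for 19.7% of the 21995 genes with at least 10 UMIs. The barcodes of lowest count of each library are a measure of background RNA. In them every tumor also lay above every control for Olig1, Olig2, Pdgfra, Cspg4 and Vcan, but not for the rest of the 10. Pdgfra stood there at 13.0 to 18.0 CPM in controls and 26.5 to 61.4 CPM in tumors. Bcas1 stood there at 71.4 to 119 and 71.9 to 783 CPM. In controls the range of these barcodes lay above that of the kept cells for Olig1, Olig2, Pdgfra, Gpr17, C1ql1 and Bcas1. Olig1 stood at 53.6 to 58.4 CPM in them beside 29.3 to 38.4 CPM in kept control cells. The range lay below that of the kept control cells for Vcan and overlapped it for Cspg4, Neu4 and Enpp6. The part of background RNA in the whole-library differences was not tested. With neuron-gated cells left out of both groups, 5 of the 10 were called higher (Olig1, Olig2, Pdgfra, Cspg4 and C1ql1), where 24.9% of 14230 genes were, and the median over the 10 was 1.45. The other lineage genes were less uniform. Of 12 further precursor genes 8 were called higher and 0 lower (median log2 difference 1.42), among them Sox8, a partner of Sox10 in the lineage, at 2.69 ± 0.56 and Sox6 at 1.71 ± 0.37. Of 11 committed-precursor genes 7 were called higher (median 1.01), and of 14 myelin genes 0 were called in either direction (median 0.18). With neuron-gated cells left out 6 of the 12 precursor genes were called higher and 1 lower, 3 of 10 committed-precursor genes tested were called higher, and 0 of 14 myelin genes were called.

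The RefSeq promoter windows of Olig2, Cspg4 and Pdgfra are shown because these genes stood for the 3 patterns in the tumors described next: spread through transgene-positive cells, shared with mural cells, and highest in precursor-gated cells. Each window runs from 250 bases before to 50 bases after the annotated start on GRCm38.p6, plus strand, 5′ to 3′, with capitals marking E-boxes (CANNTG, the motif class bound by OLIG and other basic helix-loop-helix factors) and SOX-type motifs (ACAAT or its complement ATTGT). Windows were examined for 6 of the 10 genes and not for the other 4, so nothing is read for those 4.
Olig2, chr16:91225300-91225599: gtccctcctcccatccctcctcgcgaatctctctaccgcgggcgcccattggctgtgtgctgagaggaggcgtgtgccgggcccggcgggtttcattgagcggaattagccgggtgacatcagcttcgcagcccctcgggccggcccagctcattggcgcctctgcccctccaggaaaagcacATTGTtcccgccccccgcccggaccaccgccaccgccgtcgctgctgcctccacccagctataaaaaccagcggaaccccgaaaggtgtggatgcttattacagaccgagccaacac
Cspg4, chr9:56864854-56865153: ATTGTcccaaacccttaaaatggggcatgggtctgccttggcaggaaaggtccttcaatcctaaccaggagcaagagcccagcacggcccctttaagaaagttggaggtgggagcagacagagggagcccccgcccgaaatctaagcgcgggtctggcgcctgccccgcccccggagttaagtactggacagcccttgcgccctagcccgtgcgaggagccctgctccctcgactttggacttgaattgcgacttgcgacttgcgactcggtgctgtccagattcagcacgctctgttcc
Pdgfra, chr5:75152001-75152300: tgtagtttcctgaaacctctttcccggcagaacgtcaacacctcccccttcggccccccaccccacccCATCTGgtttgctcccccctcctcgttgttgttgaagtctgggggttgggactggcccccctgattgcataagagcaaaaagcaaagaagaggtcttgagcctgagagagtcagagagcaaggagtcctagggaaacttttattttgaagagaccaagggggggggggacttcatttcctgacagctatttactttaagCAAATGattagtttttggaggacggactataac
Olig2 held 0 E-boxes and 1 SOX-type motif, Cspg4 held 0 and 1, and Pdgfra held 2 and 0. Over all 32534 promoter windows 72.3% held an E-box and 30.8% a SOX-type motif. Both the E-box and the SOX-type motif were searched on both strands, without overlap between them in the windows shown. A kappa B-like motif, searched on both strands because RELA is an NF-kappa B subunit, was in none of the 6 windows and in 5.56% of all windows. These matches describe letters in a short window only. Olig2 and Olig1 lie next to each other on chromosome 16 (mm10), with 41.1 kb between the end of Olig2 and the start of Olig1.

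Within tumors the 10 genes were carried by different cells. The share of all their tumor UMIs found in each gate was largest in precursor-gated cells for some genes and in cells that matched no marker list for others, whichever tumor was left out. It was largest in committed-precursor-gated cells for a further 3, Gpr17, Enpp6 and Bcas1, and this ranking was lost for all 3 without tumor 4. Of 15854 tumor cells, 462 fell in the precursor gate (oligodendrocyte precursor-like cells, from at least 3 of Sox10, Cacng4, Lhfpl3, Tnr, Matn4, Pcdh15 and Emid1), 134 in the committed-precursor gate and 314 in the mature oligodendrocyte gate, whereas 8483 stayed ungated. Of the ungated cells 60.2% were transgene-positive, and 39.1% without tumor 4. The precursor-gated cells gave 57.6% of all Pdgfra UMIs, 56.9% of C1ql1 and 50.4% of Neu4, but 11.8% of Olig1 and 9.4% of Olig2. The committed-precursor gate, which rested largely on tumor 4 with 111 of its 134 cells, gave 47.6% of Enpp6 UMIs, 40.6% of Gpr17 and 31.8% of Bcas1, and without tumor 4 it gave 35.6%, 38.8% and 15.5%. The largest share then lay in the mature gate for Enpp6 (36.7%), in the precursor gate for Gpr17 (47.2%) and in ungated cells for Bcas1 (25.9%). Ungated transgene-positive cells gave 62.6% of Olig2 UMIs, 59.6% of Olig1 and 49.5% of Cspg4. These shares too rested on tumor 4: without it they were 37.4%, 33.2% and 31.6%.

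**Figure D2:**
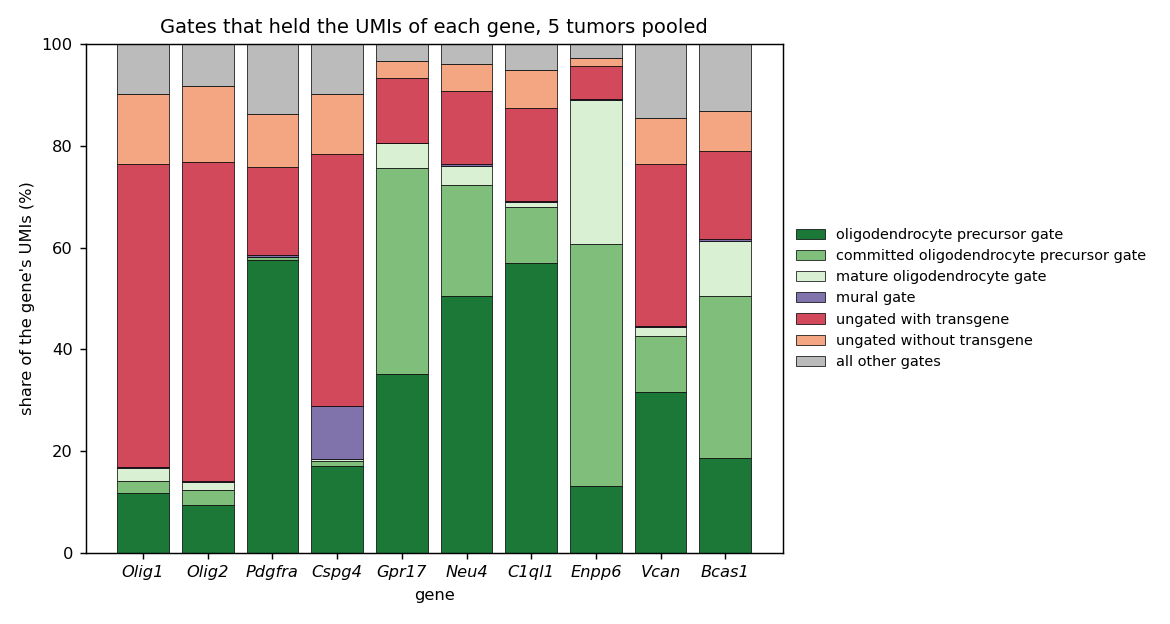
Share of each gene's tumor UMIs, in percent, by the gate of the cell that held them, pooled over the 5 tumors. Olig1, Olig2 and Cspg4 drew most of their UMIs from ungated cells, Pdgfra, Neu4 and C1ql1 from precursor-gated cells, and Gpr17, Enpp6 and Bcas1 had their largest single share in the committed-precursor gate, which was so for none of the 3 without tumor 4.

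Pooled over tumors, Pdgfra stood at 605 CPM in the precursor gate, 11.2 CPM in the committed-precursor gate and 2.62 CPM in the mature gate. Gpr17 went the other way at the first step, from 457 to 1264 CPM, and was 97.0 CPM in the mature gate. Enpp6 stood at 118, 1019 and 391 CPM over the same 3 gates and Bcas1 at 689, 2800 and 604 CPM. These levels moved with tumor 4: without it Pdgfra stood at 730, 5.49 (1 UMI) and 3.18 CPM, Gpr17 at 395, 1624 and 0.796 CPM (1 UMI in the mature gate), Enpp6 at 96.4, 1070 and 160 CPM and Bcas1 at 447, 2370 and 208 CPM, with 23 cells left in the committed gate. Each of these series describes 1 gene along the gates, without a test. Olig1 was the gene found most widely, at 2111 CPM in the precursor gate, 969 in the committed gate, 690 in the mature gate, 751 in the radial glia gate and 606 in ungated cells (347 without tumor 4). In the tumors' barcodes of lowest count it stood at 87.8 to 769 CPM, a range that holds the mature, radial glia and ungated levels. The part of background RNA in these levels was not tested. Cspg4 reached 437 CPM in the mural gate, beside 433 CPM in the precursor gate, and Pdgfra and Vcan had a further high level of 205 and 247 CPM in the 67 fibroblast-gated cells, with Pdgfra at 109 CPM (32 UMIs) without tumor 2.

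**Figure D3:**
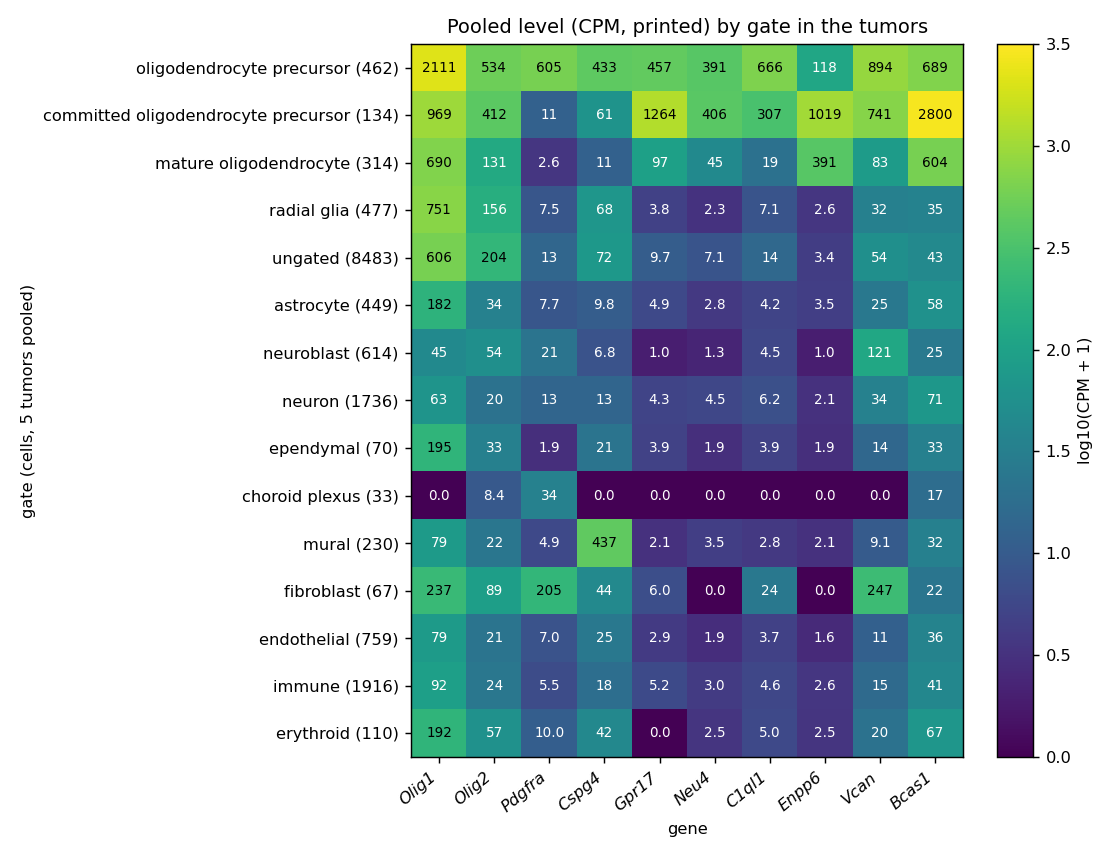
Pooled level of each gene in each gate of the 5 tumors, as printed CPM over a color scale of log10(CPM + 1), with the number of cells of each gate. Pdgfra was high in the precursor and fibroblast gates, Gpr17 and Enpp6 in the committed-precursor gate, Cspg4 in the precursor and mural gates, and Olig1 in the precursor, committed, mature and radial glia gates and in ungated cells.

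Tested within tumors, with the tumor as a block, all 10 genes were called higher in precursor-gated cells than in the other cells of the same tumors, where 6.88% of 14715 genes were called higher. The gate used none of the 10, though genes of 1 lineage are not independent of one another. Receptor, sialidase and C1ql1 showed the widest gaps, with log2 differences of 5.69 ± 0.29 for Pdgfra (n = 5 tumors, adjusted p = 4.5e-09), 5.33 ± 0.28 for Neu4 and 5.65 ± 0.26 for C1ql1 (adjusted p = 1.7e-09). Olig2 had the narrowest, at 2.18 ± 0.37 (adjusted p = 0.00050). All 10 calls held when any 1 tumor was left out, and 9 held with a gate of at least 4 markers, which had enough cells in 4 tumors and in which Enpp6 was not called (0.80 ± 0.41, adjusted p = 0.22). Among further precursor genes that were no gate markers, Ptprz1, Sox6, Sox8 and Cspg5 were called higher. Of 11 committed-precursor genes 8 were called higher, and of 14 myelin genes 2 were called higher (Ugt8a and Cnp) and 7 lower, where 11.6% of all genes were called lower. The myelin list holds the 9 markers of the mature oligodendrocyte gate, and the committed-precursor list the 8 of the committed gate. Cells of those gates were among the other cells, so the gating fixed part of these counts.

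At the level of single cells the precursor gate and the committed gate differed in which markers met in 1 cell. In the precursor gate 449 of 462 cells had a UMI of Olig1 or Olig2, 349 of these (77.7%) also had Pdgfra, and 184 of the 462 had both Pdgfra and Gpr17. In the committed gate 130 of 134 cells had Gpr17 and 10 had both. To compare cells of unequal depth, each was thinned to 2000 UMIs and shallower cells were left out. Thinned, Pdgfra was found in 64.9% of 441 precursor-gated cells, in 1.55% of 129 committed-precursor-gated cells (exact 95% interval 0.188 to 5.49%) and in 0.919% of 1741 immune-gated cells (0.526 to 1.49%), which are not known to carry it and whose UMIs were taken as the background. Gpr17 was found in 43.1%, 87.6% and 0.689% of the same cells. Without thinning, and with the 21, 5 and 175 shallower cells included, the shares were 77.1%, 7.46% and 2.61% for Pdgfra and 55.0%, 97.0% and 1.93% for Gpr17. Without tumor 4 the thinned shares were 65.9% of 164, 0 of 18 and 1.02% of 1366 cells for Pdgfra and 30.5%, 88.9% and 0.586% for Gpr17. Intervals and floors cover counting error only. Of the precursor-gated cells 42 of 462 (9.09%) had 3 or more proliferation markers. Transgene-positive cells made up 7.14, 39.1, 14.3, 49.1 and 9.43% of the precursor gate in tumors 1 to 5 and 2.11, 8.09, 0.617, 23.5 and 12.1% of the immune gate. Pooled, they made up 37.9% and 9.60%, and without tumor 4 they made up 21.1% and 6.23%. The precursor and immune gates had a median depth per tumor of 2962 to 5550 and 2364 to 6208 UMIs.

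The question whether the genes follow the fusion was addressed inside each tumor by setting transgene-positive cells against the cells without a transgene UMI. Since the paper describes the fusion construct as Nestin-driven, cells without a transgene UMI may still carry the recombined allele. The part of Nestin-driven transcription in this contrast was not tested. Olig2 was called higher in transgene-positive cells and Gpr17, Enpp6 and Bcas1 were called lower, where 15.7% of 15833 genes were called higher and 17.2% lower. The median log2 difference over the 10 genes was -0.55, beside 0.04 over all genes. Transgene-positive cells were deeper, with medians of 2968, 6405, 4231, 7028 and 4570 UMIs beside 2052, 3880, 2173, 5642 and 3466. Thinning both to 2000 UMIs gave 2 of the 10 genes higher, where 10.6% of 14102 genes were, and 5 lower, where 14.1% were. Transgene status was kept from the unthinned counts, so thinning did not remove the part of depth in that status.

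Olig2 stood at 43.8, 127, 202, 265 and 119 CPM in transgene-positive cells of tumors 1 to 5 and at 29.5, 64.1, 60.6, 202 and 95.5 CPM in the other cells. It was higher with the transgene in 5 of 5 tumors (log2 difference 0.91 ± 0.20, adjusted p = 0.0062). Olig1 stood at 62.6, 563, 805, 819 and 165 CPM with the transgene and at 104, 308, 258, 669 and 166 CPM without, and did not pass (0.60 ± 0.26, adjusted p = 0.095). Tumors 1 and 5 thus did not show for Olig1 the difference seen in tumors 2 to 4.

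Gpr17 stood at 3.13, 2.59, 47.5, 38.6 and 1.24 CPM with the transgene and at 12.2, 4.63, 83.3, 147 and 6.36 CPM without, lower in 5 of 5 tumors (log2 difference -1.39 ± 0.24, adjusted p = 0.0018). The 3.13 CPM of tumor 1, with 83 transgene-positive cells, rested on very few UMIs, here and for Enpp6. Enpp6 was lower in 5 of 5 tumors too, at 3.13, 3.17, 20.0 and 0.773 CPM with the transgene and 23.7, 17.5, 123 and 4.59 CPM without in tumors 1, 2, 4 and 5. Tumor 3 had 0 Enpp6 UMIs with the transgene, which allows up to 4.07 CPM, and 26.8 CPM without (log2 difference over the 5 tumors -2.57 ± 0.25, adjusted p = 7.3e-05). Bcas1 was lower in 5 of 5 as well (-1.08 ± 0.20, adjusted p = 0.0028). Pdgfra (-0.61 ± 0.32, adjusted p = 0.17), Neu4 (-0.93 ± 0.33, adjusted p = 0.052), C1ql1, Vcan and Cspg4 were not called. Tumor 3, with 103 transgene-positive cells, went against the other tumors for several of these: without it Pdgfra (-1.06), Neu4 (-1.46) and C1ql1 (-0.94) were also called lower.

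**Figure D4:**
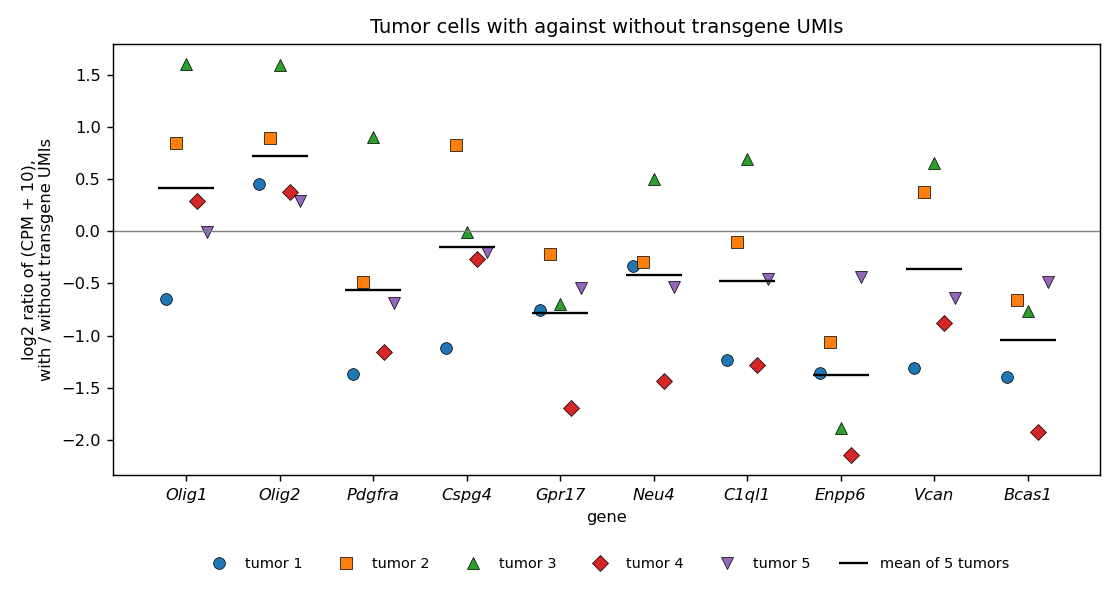
Log2 ratio of each gene's CPM in transgene-positive cells to that in the other cells of the same tumor, with a pseudocount of 10 CPM and 1 point per tumor. Olig2 lay above 0 and Gpr17, Enpp6 and Bcas1 below 0 in all 5 tumors.

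These calls depended on which cells were set against the transgene-positive ones. With the precursor, committed and mature oligodendrocyte gates left out of both sides, Olig1 (1.09, adjusted p = 0.011) and Olig2 (1.22, adjusted p = 0.0025) were called higher and 0 of the 10 lower, where 14.8% of 15772 genes were called higher and 15.8% lower, with Gpr17 at -0.37, Enpp6 at -0.68 and Bcas1 at -0.38. In another fit the immune, endothelial, mural and fibroblast gates, called non-neural below, and the neuron gate were left out instead. The erythroid and choroid plexus gates stayed in. In that fit 0 of the 10 were called higher and 7 lower, where 5.45% of 14849 genes were called higher and 6.84% lower. Olig2 was at 0.22 (adjusted p = 0.25) and Olig1 at -0.07. With no gate left out, the myelin genes followed the same side as Enpp6. There 14 of 14 were called lower in transgene-positive cells (median -2.30), as were 7 of 11 committed-precursor genes, while Tcf7l2 was called higher. Of the 12 precursor genes 2 were called higher there, among them Cspg5, and 2 lower (Pcdh15 and Tnr), with a median of -0.05. Over all genes of that fit 15.7% were called higher and 17.2% lower.

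Ungated transgene-positive cells, which matched no marker list, were also compared with the immune-gated cells of the same tumors, which belong to another lineage. Olig1 stood at 86.4, 541, 768, 799 and 173 CPM in the former and at 22.6, 66.0, 16.97, 234 and 47.9 CPM in the latter (log2 difference 2.36 ± 0.47, adjusted p = 0.0022). Olig2 stood at 64.8, 134, 203, 264 and 129 CPM beside 7.97, 10.9, 1.59, 63.4 and 22.9 CPM (2.82 ± 0.48, adjusted p = 0.00077), and Cspg4 at 5.40, 113, 25.9, 84.8 and 21.5 CPM beside 3.99, 22.1, 4.77, 29.2 and 11.4 CPM (1.31 ± 0.26, adjusted p = 0.0022). These 3 genes were higher in 5 of 5 tumors and were the genes called, where 24.1% of 13263 genes were called higher. For Cspg4 the direction in tumor 1, with 50 ungated transgene-positive cells, rested on very few UMIs. The 3.99 CPM of its immune gate stood for 3 UMIs. The other 7 were not called, among them Pdgfra (0.68 ± 0.54, adjusted p = 0.33), Vcan (1.16 ± 0.48, adjusted p = 0.070) and Gpr17 (-0.88 ± 0.48, adjusted p = 0.15). Thinned to 2000 UMIs, Olig1 was found in 60.4% of 5078 ungated transgene-positive cells and 13.4% of immune-gated cells, Olig2 in 33.0% and 3.96%, Cspg4 in 13.4% and 2.58%, and Pdgfra in 2.46% and 0.919%. Unthinned, the shares were 82.6% and 23.5% for Olig1, 65.2% and 8.40% for Olig2, 35.1% and 6.63% for Cspg4, and 6.30% and 2.61% for Pdgfra. Without tumor 4 the thinned shares were 42.6% and 9.74% for Olig1, 22.8% and 2.42% for Olig2, and 9.40% and 2.27% for Cspg4. High shares were not particular to transgene-positive cells. In 2841 ungated tumor cells without a transgene UMI the thinned shares were 41.9% for Olig1, 22.6% for Olig2, 9.36% for Cspg4 and 3.48% for Pdgfra. Of 5111 ungated transgene-positive cells 4549 had a UMI of Olig1 or Olig2, and 285 of these (6.27%) had Pdgfra, against 77.7% in the precursor gate. The 3000 barcodes of lowest count of each library, another measure of background RNA, stood higher in these 3 genes than the immune gate. There Olig1 was at 87.8, 384, 213, 769 and 163 CPM in tumors 1 to 5, about the level of the ungated transgene-positive cells in tumors 1, 4 and 5 and below it in tumors 2 and 3. Olig2 was at 18.2, 53.5, 34.5, 189 and 68.0 CPM, below those cells in 5 of 5 tumors. Cspg4 was at 17.1, 77.4, 35.1, 89.5 and 36.0 CPM, below them in tumor 2 and above them in the other 4. The part of background RNA in the differences of Olig1, Olig2 and Cspg4 was not tested.

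Cspg4 had a second high site in the mural gate, which stands for pericytes and smooth muscle-like cells. In tumors 2 to 5, which had at least 20 such cells, it stood at 241, 638, 684 and 230 CPM, and it was 3.08 ± 0.45 higher on the log2 scale than in the other cells of the same tumors (n = 4, adjusted p = 0.0025). It was the gene called higher there, while 8 were called lower and Pdgfra was not called (-2.48, adjusted p = 0.071), where 6.49% of 14284 genes were called higher and 6.06% lower. With 1 tumor left out, in either direction, 5 were called without tumor 2 (4.67% of all genes), 9 without tumor 3 (15.1%), 4 without tumor 4 (6.58%) and 10 without tumor 5 (11.2%). Mural-gated cells held 10.4% of the tumors' Cspg4 UMIs.

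Barcodes that passed the precursor gate were compared between tumors and controls, which is not a comparison within 1 cell type. The control barcodes carried more neuron than precursor marker RNA, as given after the values. There were 28, 69, 35, 277 and 53 such barcodes in tumors 1 to 5 and 20, 48, 38 and 36 in controls 1 to 4. All 10 genes passed the low-count filter and were called higher in tumors, and 28.2% of 3544 genes were called higher. Some passed through their tumor counts: Enpp6 had 0, 2, 0 and 1 UMIs in controls 1 to 4 and fell under the filter without any 1 of tumors 1 to 4, and Gpr17 had 1, 11, 7 and 6 UMIs and fell under it without tumor 4 or tumor 5. The filter thus fixed part of the count, and nothing is read from it against that share. Olig1 stood at 95.3, 79.9, 63.6 and 61.0 CPM in controls and at 1607, 1275, 4546, 2293 and 1204 CPM in tumors. It is given without a test because it too passed the filter through its tumor counts. Pdgfra stood at 143, 245, 191 and 271 CPM in controls and at 1151, 339, 1274, 525 and 970 CPM in tumors (1.87 ± 0.37, adjusted p = 0.00066), with tumor 2 nearest the controls. Gpr17 stood at 23.8, 58.6, 49.5 and 40.7 CPM in controls and at 353, 65.2, 1784, 497 and 147 CPM in tumors, given without a test because of how it passed the filter, with tumor 2 close to the highest control. The smallest differences were those of Cspg4 (1.33 ± 0.30) and Vcan (1.48 ± 0.29), both of the precursor surface and matrix.

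The control barcodes in this gate went against its name. Their 9 neuron markers summed to 6936 to 7791 CPM, beside 10440 to 11479 CPM in neuron-gated control cells, whereas the gate's own 7 markers summed to 1478 to 1811 CPM. In the tumors the neuron markers summed to 103 to 1858 CPM and the precursor markers to 2138 to 5156 CPM. All 9 neuron markers had UMIs in both groups. Median depth was 1856 to 3675 UMIs in controls and 2962 to 5550 in tumors. The part of the neuronal RNA and of depth in the differences was not tested.

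Precursor-gated barcodes made up 0.315, 0.957, 0.945 and 0.720% of kept cells in controls 1 to 4 and 1.19, 2.25, 2.03, 5.46 and 1.45% in tumors 1 to 5. Every tumor lay above every control, and the difference of means was 1.74 percentage points (2-sided exact permutation test over all splits of the 9 mice, p = 0.0159, the smallest possible). Without tumor 4 the difference was 0.999 points (exact permutation p = 0.0286, the smallest possible). The direction depended on the denominator: with neuron-gated cells left out of it the shares were 2.94, 7.37, 6.87 and 6.39% in controls and 2.00, 2.44, 2.50, 5.48 and 1.54% in tumors, a difference of -3.10 points (exact permutation p = 0.0317). With a mitochondrial limit of 20% the difference was 0.87 points (exact permutation p = 0.143).

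**Figure D5:**
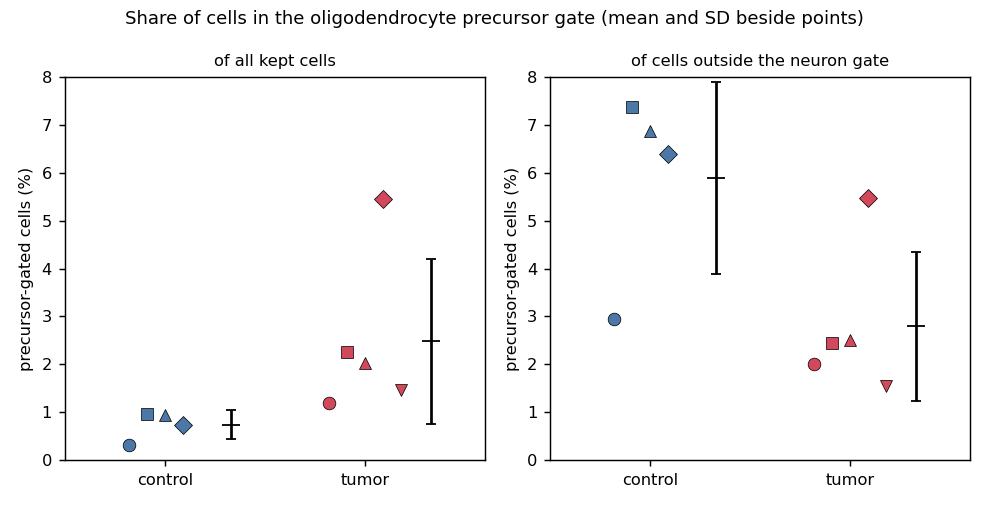
Share of kept cells in the oligodendrocyte precursor gate, in percent, over all kept cells and with neuron-gated cells left out of the denominator, for 4 controls and 5 tumors, with shapes for replicate numbers and the mean and SD beside the points. Over all cells every tumor lay above every control, and with neuron-gated cells left out 4 tumors lay below every control and tumor 4 lay above control 1 only.

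In the other gates fewer of the genes had enough UMIs to be tested. In the mature oligodendrocyte gate 4 were tested and 3 were called higher in tumors, where 11.1% of 3791 genes were called higher. Only 24 of 164 control cells of this gate had an Olig2 UMI, so Olig2 may have passed the low-count filter through its tumor counts. The count is therefore not read against that share. Olig1 stood at 174, 163, 189 and 200 CPM in controls and at 541, 677, 985, 759 and 519 CPM in tumors, with no overlap (log2 difference 2.03 ± 0.27, adjusted p = 0.00057). Olig2 (1.54 ± 0.42, adjusted p = 0.020) and Enpp6 (2.46 ± 0.77, adjusted p = 0.036) were called too, but Olig2 lost its call without control 1, 2 or 4 and Enpp6 without any 1 control, and Enpp6 in tumor 4, at 1462 CPM, stood far above the 112 to 194 CPM of the other tumors (log2 difference 1.09 without it). Neuron markers in this gate summed to 2757 to 3495 CPM in controls and 29.6 to 667 CPM in tumors. In the barcodes of lowest count Olig1 stood at 53.6 to 58.4 CPM in controls and 87.8 to 769 CPM in tumors. The part of neuronal RNA and of background Olig1 was not tested. In the astrocyte gate 2 were tested: Olig1 was called higher (2.30 ± 0.54, adjusted p = 0.0034) and Bcas1 lower (-1.41 ± 0.46, adjusted p = 0.024), where 32.3% of genes were called in either direction, and Bcas1 lost its call without control 3, tumor 1 or tumor 5. Only 24 of 166 control cells of this gate had an Olig1 UMI, so Olig1 may have passed the low-count filter through its tumor counts. Neuron markers in the astrocyte gate summed to 2723 to 3489 CPM in controls and 57.5 to 966 CPM in tumors, and mature oligodendrocyte markers to 595 to 876 and 15.7 to 447 CPM. Their part, and that of the background Olig1 given above, was not tested. In the neuron gate 8 were tested, with Olig2 called higher (1.55 ± 0.45, adjusted p = 0.040) and Enpp6 lower (-1.75 ± 0.48, adjusted p = 0.032) beside 13.1% of genes called, and 0 were called without any 1 control or without tumor 2. Neuron markers in the neuron gate summed to 10440 to 11479 CPM in controls and 2177 to 10473 CPM in tumors, and 17 of the 22 neuron-gated cells of tumor 4 (77.3%) were transgene-positive. The part of either was not tested. In the immune gate, where 48.6% of genes were called, and in the endothelial gate, where 26.0% were called, edgeR called 0 of 2 and 0 of 3 genes tested. At an unadjusted p under 0.05 the counts were 0 and 2, beside 5243 of 9444 and 2874 of 7321 genes, and DESeq2, which tested all 10, called 2 and 0, beside 35.5% and 15.8% of genes.

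The genes whose levels over the 14 tumor gates of enough cells were most like those of 3 members were found among 14650 genes by Pearson correlation, given as a description over gates that share their libraries. For Olig2 they were Mb21d2 (r = 0.925), Sulf2 (0.913) and Efs (0.906). For Pdgfra they were B9d1os (0.895), Angptl1 (0.866) and Tmem132c (0.863). For Gpr17 they were Matn1 (0.989), Prkcq (0.977) and S100a2 (0.977), each highest in the committed-precursor gate, which came mainly from tumor 4.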

How the data were processed

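Single-cell 5′ gene expression libraries of 9 mice, 5 with tumors and 4 controls, were deposited by the authors as filtered matrices of UMI counts, 1 per mouse, with no normalization. The submitters' processing notes name Cell Ranger 7 and Scanpy 1.8.2 and the mm10 build, the header of the matrices gives Cell Ranger 6.1.2, and sequences of the fusion, Luc, IRES and reporter were added to the reference. Controls held 101060608 to 178086164 UMIs over 75222 to 86516 barcodes and tumors 14967680 to 69411387 UMIs over 9001 to 26341 barcodes, so that barcodes were filtered again. For 1 control the barcode list (80865 lines) and feature list (32287 lines) were shorter than the matrix (80887 and 32289), and names were matched after checking the order of the mouse genes. Groups and replicate numbers came from the labels.

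Of the 10000 barcodes with most UMIs in each library, those with 200 to 6000 genes were kept if a mixture model of 2 components (scikit-learn 1.9.0) on mitochondrial share and gene number placed them in the component of lower mitochondrial share and Scrublet (Scanpy 1.11.5), with 0.8% doublets per 1000 barcodes, did not call them doublets. The model was fitted to each library alone, so that libraries were cut at unlike limits. Barcodes it removed had a median mitochondrial share of 3.47% in tumor 4 and 4.62% in tumor 5, below the 6.8 to 8.1% of kept control cells. A cell was gated by at least 3 markers of a list and a summed level at least 3 times that expected from the 3000 barcodes of lowest count, and a second pass gated neurons by at least 3 markers and 2000 CPM. The markers were fixed, whereas the gate thresholds were set after the data were seen. A cell was transgene-positive with at least 1 UMI of the fusion, Luc or IRES. Counts were summed per mouse, over at least 20 cells, and tested with edgeR 4.0.16 in R 4.3.3 (TMM normalization, filterByExpr, quasi-likelihood F-test, Benjamini-Hochberg over all genes tested, threshold 0.05), with the tumor as a block in contrasts within tumors. Standard errors were derived from the F statistic. The procedure was tested on simulated data first. DESeq2 1.42.0, no low-count filter, other cell filters, thinned cells, other cell sets and leaving out each library were the alternatives. The contrasts of ungated and of mural-gated cells, the stricter transgene status, leaving out the lineage gates, the pooled tumor shares and levels without 1 tumor, and the list counts without neuron-gated cells were added after the data were seen. The replicate chi-square per degree of freedom was at least 4.13, so no library was a duplicate.

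The 10 genes and the lists were chosen with earlier results of these data known. The genes named are the 10, those of 4 fixed lists a result turns on, and the 3 most like Olig2, Pdgfra and Gpr17 in log2(CPM + 10) over gates with at least 50 cells, among genes with at least 100 UMIs in tumors. Values of 1 gene of the precursor list are not reported here.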

Additional observations from a re-analysis of the deposited data

Results flagged for a closer look

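In 9 of the 59 sets of per-library values examined, 1 library stood apart from its group by Dixon's ratio (its gap to the nearest library over the group's range above the 95% limit for 5 samples), and chance alone gives about 1 in 20. In the mature oligodendrocyte gate tumor 4 was the highest by this measure for Gpr17 (ratio 0.992, 544 CPM beside 4.25 CPM in the next tumor), Neu4 (0.970), Vcan (0.954), Enpp6 (0.939), C1ql1 (0.926) and Bcas1 (0.900, 2447 beside 374 CPM). Tumor 4 had 38 mature-gated cells. In the other 4 tumors Enpp6 stood at 112 to 194 CPM and Bcas1 at 142 to 374 CPM in this gate, while Gpr17, Neu4 and C1ql1 had 0 to 3 UMIs each. In the precursor gate Gpr17 was the highest in tumor 3 (0.749, 1784 beside 497 CPM). The precursor-gated share was the highest in tumor 4 (0.751, 5.46% beside 2.25%). The ratio of Olig2 to Olig1 UMIs was the highest in tumor 5 (0.755), at 0.632 beside 0.298, 0.218, 0.239 and 0.320 in tumors 1 to 4 and 0.208 to 0.289 in controls.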

How the results depend on the processing

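Over 890 refits of single genes, 792 kept direction and side of the threshold, 37 gained a call, 46 lost it and 15 reversed, and the cause of these changes was not tested. Same-numbered mice did not deviate together (correlations 0.098, 0.052, 0.0081 and 0.058), and a replicate block in the comparison of all cells gave 8 of the 10 genes and 9272 genes in all (47.7% of those tested), with Gpr17 lost. In the same comparison 8 of the 10 were called with no mitochondrial or doublet filter (54.1% of genes tested). With a mitochondrial limit of 20% 8 were called too (57.0%). Without neuron-gated cells 5 of the 10 and 6487 genes (45.6%) were called. In the transgene contrast 7 of the 10 were called without the non-neural and neuron gates (1825 genes in all, 12.3% of those tested), 7 after thinning (24.7%), 7 with at least 2 transgene UMIs (26.5%) and 2 without the lineage gates (30.6%). Without the low-count filter the calls were 5 for ungated against immune cells (30.9% of all genes tested), 8 in the mature (10.3%), 2 in the immune (28.8%) and 1 in the endothelial gate (14.6%), and DESeq2 called 2 in the immune (35.5%) and 5 in the neuron gate (17.4%). The precursor share differed by 0.872 points with the 20% mitochondrial limit and by -3.10 points without neuron-gated cells. Leaving out 1 library gave 4 to 7 genes of the transgene contrast (2830 to 4254 genes in all, 18.1 to 27.1%), 4 to 10 in the mural (4.67 to 15.1% of all genes tested), 1 to 2 in the astrocyte (22.1 to 37.6%), 1 to 3 in the mature (13.7 to 37.8%), 0 to 1 in the immune (38.8 to 50.6%), 0 to 2 in the endothelial (13.4 to 32.0%) and 0 to 3 in the neuron gate (6.37 to 18.3%), and share differences of 0.999 to 2.07 points. Reversed log2 differences were Bcas1 in the immune gate without the filter (0.044, and -0.37 to 0.20 with 1 library left out), Olig1 (-0.070) and Cspg4 (-0.10) in the transgene contrast without non-neural and neuron gates, Cspg4 with DESeq2 (-0.042), and C1ql1 (0.33) and Vcan (0.37) without the lineage gates. With 1 tumor left out the transgene contrast ranged from -0.27 to 0.21 for Cspg4 and from -0.49 to 0.011 for Vcan, Neu4 in ungated against immune cells from -0.054 to 0.46, and in the neuron gate Pdgfra ranged from -0.19 to 0.53 and Bcas1 from -0.61 to 0.42. Gates with few cells and tumors with 83 and 103 transgene-positive cells limit the depth behind these values.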

Other observations

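The ligands and the second receptor of the PDGF family, which act on Pdgfra-bearing precursors and on mural cells, were a further fixed list. In all cells 4 of 5 were called higher in tumors, where 32.2% of all genes tested were: Pdgfa (log2 difference 2.27 ± 0.63, adjusted p = 0.012), Pdgfb (2.70 ± 0.43, adjusted p = 0.00078), Pdgfd (2.34 ± 0.52, adjusted p = 0.0037) and Pdgfrb, the receptor of mural cells (2.42 ± 0.28, adjusted p = 0.00022), while Pdgfc was not (0.30 ± 0.31, adjusted p = 0.42). With neuron-gated cells left out 2 of 5 were called higher, where 24.9% of genes were, namely Pdgfa (2.05, adjusted p = 0.019) and Pdgfb (1.05, adjusted p = 0.033), with Pdgfd at 0.85 (adjusted p = 0.31) and Pdgfrb at 0.52 (adjusted p = 0.13). In transgene-positive cells of the tumors Pdgfa was called higher (0.80 ± 0.13, adjusted p = 0.0013) and Pdgfd (-0.92 ± 0.32, adjusted p = 0.047) and Pdgfrb (-1.17 ± 0.18, adjusted p = 0.0011) lower, where 15.7% of genes were called higher and 17.2% lower. In precursor-gated cells Pdgfb (-2.43 ± 0.34) and Pdgfrb (-2.64 ± 0.49) were called lower than in the other tumor cells, where 11.6% of genes were.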
